A study of Mus musculus with 7 samples.

Results

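The 36 genes described here encode the contractile actin cytoskeleton of fibroblasts, the proteins that tie it to focal adhesions, and serum response factor (SRF) with its cofactors. They were chosen by gene symbol from a table of 49382 mouse genes, each symbol was found on 1 row, and all 36 passed the expression filter (averaging 2 TPM or more across the libraries) that 12909 genes of the table passed. Their levels were measured by RNA-seq, in 7 libraries, of wild-type primary mouse embryonic fibroblasts (MEFs), which were grown from embryos of embryonic day 13.5 to 14.4 without the head and red tissue and used at passages 3 to 7. One library came from control cells in complete DMEM and 1 from each of 6 conditions, so a condition had 1 library and no replicate. Glucose depletion and glutamine depletion (medium without that nutrient), hypoxia (0.1% oxygen) and ER stress (1 µM thapsigargin, an inhibitor of the calcium pump of the endoplasmic reticulum) lasted 10 hours. Oxidative stress (10 µM sodium arsenite) and osmotic stress (100 mM NaCl added to the medium) lasted 3 hours. The labels name no vehicle for the control and no harvest time for it, and duration and kind of stress cannot be told apart between the 10-hour and 3-hour conditions. Primary MEFs are a mixture of mesenchymal cells of the embryo body, and in bulk RNA fewer cells of a type and less RNA per cell cannot be told apart.

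Fibroblasts pull on their surroundings with stress fibers, in which actin filaments coated with tropomyosin and calponin slide past non-muscle and smooth muscle myosin II and end in focal adhesions. SRF binds a DNA element called the CArG box in many of these genes. It does so with myocardin-related cofactors (MRTFs, here Mkl1 and Mkl2) that monomeric actin holds in the cytoplasm, or with ternary complex factors (TCFs) downstream of ERK, which drive immediate early genes. Fibroblasts in culture take on part of the program of myofibroblasts, the contractile cells of wounds, for which Acta2 and Tagln are the usual markers.

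The CArG box was searched in the 250 bases upstream of the start sites that RefSeq gives on build GRCm38.p6. Promoters were found for 32 of the 36 genes (42 promoters), and none was found for Actb, Actg2, Tagln and Pxn. At least 1 exact box lay in 10 of the 42 promoters, 23.8%, against 1.47% of 32851 promoters of the genome. These 10 promoters belonged to 9 genes (Actg1, Cnn2, Myl9, Myl6, Vcl, Fhl1, Fhl2, Filip1l and Srf). With at most 1 letter off, 42.9% of the 42 promoters and 18.6% of all promoters held one. The windows around the exact boxes are shown because the gene set is named for targets of SRF, with the box (a pair of C, a run of A or T, a pair of G) in capitals, 5′ to 3′ on the strand of the gene and from RefSeq.
Actg1, chr11:120348551-120348610, minus strand: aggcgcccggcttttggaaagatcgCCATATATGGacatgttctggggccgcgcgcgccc
Cnn2, chr10:79988519-79988578, plus strand: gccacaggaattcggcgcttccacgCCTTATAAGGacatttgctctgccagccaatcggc
Myl9, chr2:156775278-156775337, plus strand: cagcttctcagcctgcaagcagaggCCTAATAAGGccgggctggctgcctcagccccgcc
Myl6, chr10:128493025-128493084, minus strand: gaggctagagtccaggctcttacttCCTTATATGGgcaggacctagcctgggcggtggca
Vcl, chr14:20929148-20929205, plus strand: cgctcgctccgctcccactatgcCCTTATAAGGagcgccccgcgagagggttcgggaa
Fhl1, chrX:56779556-56779615, plus strand: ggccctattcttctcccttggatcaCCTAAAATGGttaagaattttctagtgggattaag
Fhl2, chr1:43196823-43196882, minus strand: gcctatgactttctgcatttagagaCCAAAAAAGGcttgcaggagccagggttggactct
Fhl2, chr1:43163962-43164017, minus strand: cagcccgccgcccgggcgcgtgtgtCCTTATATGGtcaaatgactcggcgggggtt
Filip1l, chr16:57549155-57549214, plus strand: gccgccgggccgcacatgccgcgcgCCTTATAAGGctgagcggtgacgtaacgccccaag
Srf, chr17:46556190-46556269, minus strand: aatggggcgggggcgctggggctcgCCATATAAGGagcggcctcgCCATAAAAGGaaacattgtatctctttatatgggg

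The Srf promoter was the only one of the 42 with 2 exact boxes, at bases -82 to -73 and -62 to -53 from the start site. For Acta2, Tpm1 and Lmod1 the closest match had 9 of the 10 letters. These windows are shown because Acta2 marks the myofibroblast state and because Tpm1 and Lmod1 were among the genes with the lowest levels in ER stress relative to control, with the 10 matched bases in capitals.
Acta2, chr19:34255423-34255482, minus strand: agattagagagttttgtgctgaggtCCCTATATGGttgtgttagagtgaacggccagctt
Tpm1, chr9:67049400-67049459, minus strand: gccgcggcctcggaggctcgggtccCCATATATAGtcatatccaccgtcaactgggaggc
Lmod1, chr1:135324599-135324658, plus strand: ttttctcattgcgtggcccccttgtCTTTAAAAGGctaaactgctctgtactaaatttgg

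A match to the box is a description of the sequence, and its absence says only that these letters were not in the window. The TEAD motif GGAATG, searched on both strands, lay in 11 of the 42 promoters (26.2%) and in 12.6% of all promoters. It was present in promoters of Acta2, Tagln2, Tpm1, Cald1, Lmod1, Mylk, Myh10, Vcl, Flna, Actn4 and Mkl2. The AP-1 motif TGANTCA lay in 5 of the 42 promoters (11.9%) and in 6.75% of all promoters. The TEAD motif can share letters with the end of a CArG box, and such overlaps were not removed. The promoter of Vcl held both a CArG box and a TEAD motif.

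In control cells the levels of the 36 genes ran from 4508 TPM to 10.1 TPM. Levels are given as TPM, the share of a library per transcript length scaled to a total of 1000000, so levels of different genes can be compared. The 36 genes together made up 3.28% of all TPM, and the 4 actins made up 1.27%. Actb (beta actin) stood at 4508 TPM, the 9th highest level of all genes, and was followed within the set by Acta2 (smooth muscle alpha actin) at 4019.5 TPM and Actg1 (gamma actin) at 3909 TPM. Actg1 and the pseudogene Gm12715, with which it shares sequence, summed to 4590.2 TPM, so this order depends on how reads were divided. Tpm1, a tropomyosin that stabilizes actin filaments, ranked 30 at 3034 TPM. The essential myosin light chain gene Myl6 ranked 38 at 2713 TPM and Tagln (transgelin, an actin-bundling protein of smooth muscle) ranked 52 at 2201 TPM. The lowest levels were those of the SRF cofactor Mkl2 at 10.1 TPM and the myosin light chain kinase gene Mylk at 10.9 TPM. The myofibroblast markers were therefore high in the control library itself.

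The label of the cells was checked against marker lists. The 10 fibroblast markers were all kept and summed to 17547 TPM in the control, with a range of 9053 TPM (ER stress) to 19401 TPM (osmotic stress). The 8 macrophage markers summed to between 7.28 and 16.6 TPM over the libraries, with 4 of their rows at 0 in the control. The 6 endothelial markers summed to between 4.65 and 9.80 TPM and the 6 epithelial markers to between 4.04 and 12 TPM. The 6 pericyte markers summed to between 82.6 and 184 TPM, mostly Cspg4 and Mcam (72.2 and 42.6 TPM in control). The pericyte markers Rgs5, Kcnj8 and Abcc9 were at 0.940, 0.605 and 0.671 TPM in control and did not pass the expression filter. Of the 10 skeletal and cardiac muscle markers, 3 were at 0 in the control, and the sum of 46.5 to 159 TPM was mostly Acta1, another actin gene and SRF target. The 10 smooth muscle markers summed to 4718 TPM in the control, mostly Acta2, which belongs to the 36 genes. Myh11 and Des of that list were at 9.46 and 35.7 TPM in the control.

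Changes against the control were taken as differences of log2(TPM + 1), and a gene was counted as higher or lower when it was past 2-fold on this scale. This rule is that of the study, and it understates the change of genes with low levels. With 1 library per condition no difference could be set against a spread between replicates and no test was possible, so the count of the 36 genes past 2-fold is read against the share of all 12909 genes past the same fold. Each of the 6 comparisons uses the same control library.

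In ER stress 10 of the 36 genes were lower by more than 2-fold, where 11% of all genes kept were lower, and 0 of 36 were higher, where 8.6% of all genes were higher. The 10 genes were Tpm1, Tpm2, Cnn1 and Lmod1 of the thin filament, Myl9, Myl6, Mylk and Myh10 of myosin II, Actb, and Vcl. By role, 4 of 5 myosin II genes, 4 of 11 actin-binding and thin-filament genes, 1 of 4 actins, 1 of 7 focal adhesion and crosslinking genes, 0 of 6 LIM-domain and associated genes and 0 of 3 genes for SRF and its cofactors fell past 2-fold. The median log2 difference was -0.59 for the 36 genes and 0.00 for all genes kept, and 34 of the 36 were below 0. The share of all TPM taken by the 36 genes was 1.73% in ER stress, the lowest of the 7 libraries, against 2.86% to 3.78% in the others. The level in ER stress was the lowest of the 7 libraries for 30 of the 36 genes, as it was for 23.9% of all genes kept.

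**Figure D1:**
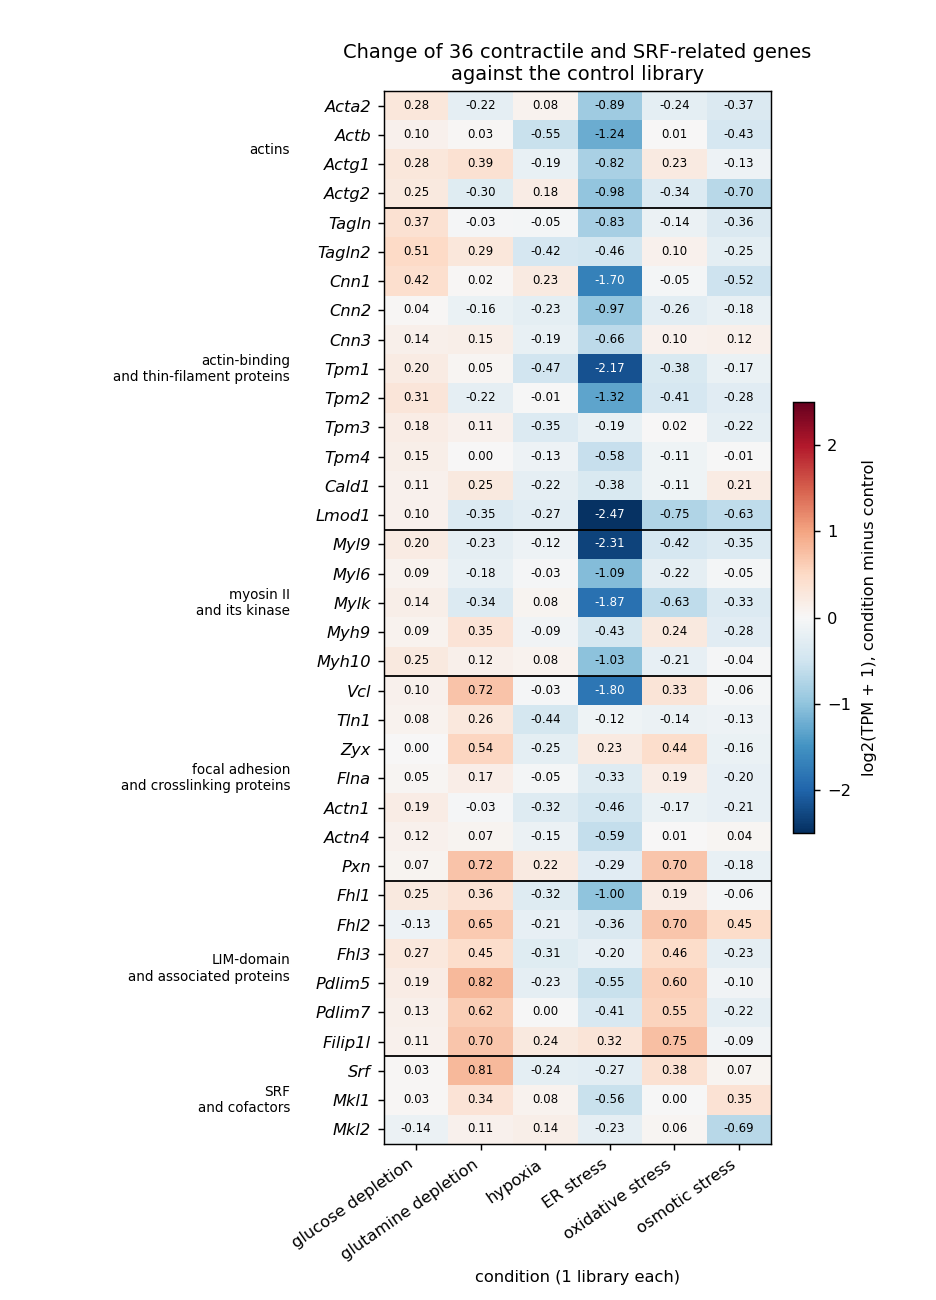
Heat map of the difference in log2(TPM + 1) between each condition and the control library (columns, 1 library each) for the 36 genes (rows, ordered by role), with each value printed in its cell. Red is higher and blue lower than control. The ER stress column holds the 10 values past -1, which are in the rows of Actb, Cnn1, Tpm1, Tpm2, Lmod1, Myl9, Myl6, Mylk, Myh10 and Vcl, and no cell of the other columns is past 1 or -1.

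Among thin-filament genes, Tpm1 was at 3034 TPM in control, 3496 in glucose depletion, 3150.1 in glutamine depletion, 2190.3 in hypoxia, 672 in ER stress, 2339 in oxidative stress and 2701 in osmotic stress. The ER stress library stood far below the other 6, which lay within a factor of 2 of each other, and the log2 difference from control was -2.17. Lmod1, which encodes leiomodin 1, a protein that starts actin filaments in smooth muscle, was at 48.1 TPM in control, 51.7 in glucose depletion, 37.5 in glutamine depletion, 39.8 in hypoxia, 7.87 in ER stress, 28.3 in oxidative stress and 30.7 in osmotic stress. Its log2 difference in ER stress of -2.47 was the lowest of the 36. Cnn1 (calponin 1, an actin-binding protein of differentiated smooth muscle) was at 262, 349, 265, 307, 80.0, 253 and 182 TPM in the same order, with a difference of -1.70 in ER stress. Tpm2, at 1172, 1449, 1005, 1165, 469, 879 and 962 TPM, had a difference of -1.32. For all of these genes the ER stress library was the lowest.

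The tropomyosins differed in the size of their change. Tpm3 and Tpm4, whose products include cytoplasmic tropomyosins of non-muscle cells, had differences of -0.19 and -0.58 in ER stress, short of 2-fold. TPM was summed by gene, so the transcripts of a tropomyosin gene were not told apart. The make-up of the family by TPM differed accordingly. Tpm1 held 53.1% of tropomyosin TPM in control and 46.8% to 55.3% in the other 5 conditions, but 30.0% in ER stress. Tpm4 held 19.1% in control and 32.5% in ER stress, and Tpm3 held 7.38% and 16.5%. In the calponin family of the same library, Cnn1 held 9.70% of calponin TPM against 16.5% in control and 12.4% to 21.3% in the others. Cnn2 and Cnn3, the calponins of non-muscle cells, had differences of -0.97 and -0.66. Cald1 (caldesmon, which binds actin and tropomyosin) was at 1404 TPM in control and 1079 TPM in ER stress, a difference of -0.38, and was highest in glutamine depletion, at 1672 TPM.

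**Figure D2:**
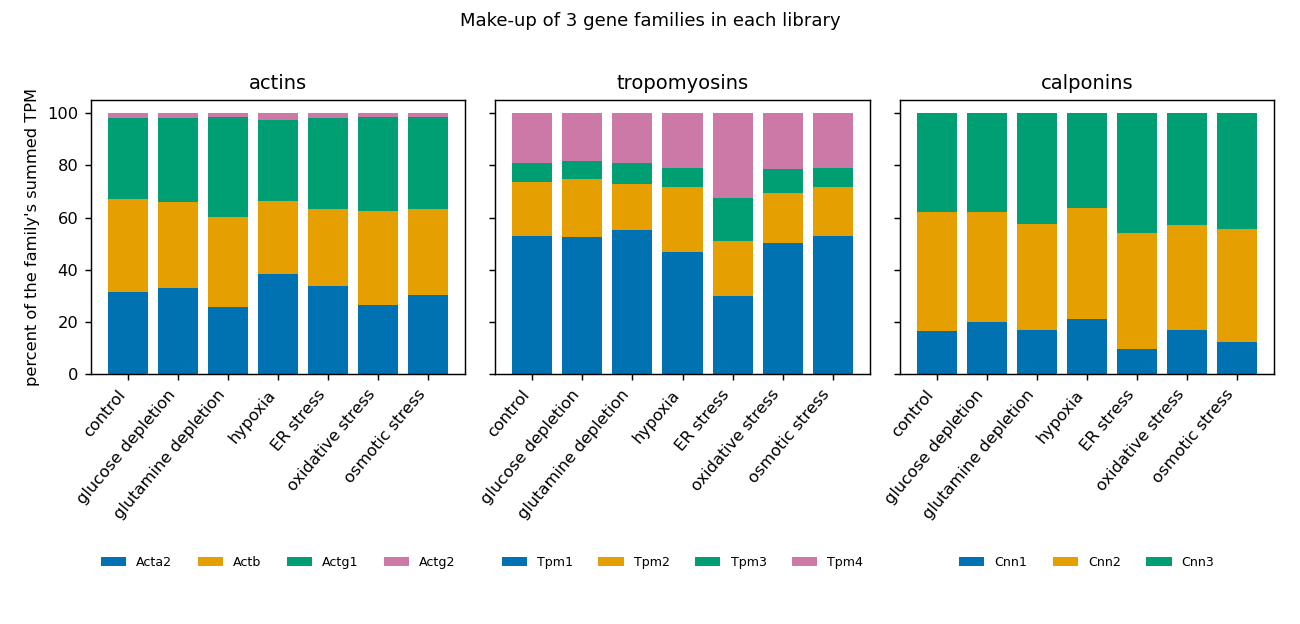
Stacked bars of the percent of a family's summed TPM held by each gene in each of the 7 libraries, for actins, tropomyosins and calponins. In the tropomyosin panel the Tpm1 segment is 30.0% in ER stress against 46.8% to 55.3% in the other libraries, and in the actin panel the Acta2 segment ranges from 25.8% in glutamine depletion to 38.5% in hypoxia.

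The myosin II genes had the lowest median by role in ER stress, -1.09. Myl9, the regulatory light chain whose phosphorylation turns on contraction, was at 1019.6 TPM in control, 1168 in glucose depletion, 867 in glutamine depletion, 938 in hypoxia, 205 in ER stress, 761 in oxidative stress and 801 in osmotic stress. It fell by 2.31 log2 units in ER stress, and the ER stress library stood apart from the other 6. Mylk, the kinase that phosphorylates this light chain, was at 10.9, 12.1, 8.41, 11.5, 2.26, 6.68 and 8.45 TPM, and its difference in ER stress was -1.87. Myl6 was at 2713, 2879, 2396, 2663, 1273, 2322 and 2618 TPM, with a difference of -1.09. The ratio of Myl9 to Myl6 was 0.376 in control and 0.161 in ER stress, and between 0.306 and 0.406 in the other libraries. Myh10 (the non-muscle myosin IIB heavy chain) was just past 2-fold, at 124 TPM in control and 60.4 TPM in ER stress, a difference of -1.03. Myh9 (the IIA heavy chain) had a difference of -0.43, so that it held 83.5% of the TPM of these heavy chains in ER stress against 76.8% in control.

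All 4 actins were lower in the ER stress library, but only Actb was past 2-fold. Actb was at 4508 TPM in control, 4835 in glucose depletion, 4605 in glutamine depletion, 3071 in hypoxia, 1901 in ER stress, 4533 in oxidative stress and 3350.2 in osmotic stress, a difference of -1.24 in ER stress. Acta2 was at 4019.5, 4878, 3449.8, 4255, 2161, 3402 and 3117 TPM, a difference of -0.89, and Tagln was at 2201, 2851, 2159.6, 2123, 1241, 1993 and 1712 TPM, a difference of -0.83. Both markers of the myofibroblast state were thus lowest in ER stress and highest in glucose depletion without passing 2-fold. Actg1 had a difference of -0.82 and Actg2 (smooth muscle gamma actin, 252 TPM in control and 127 TPM in ER stress) one of -0.98. Actg1 shares sequence with the processed pseudogene Gm12715, which was listed at 396 to 1204 TPM, so reads could have been divided between them. The sum of both was 4590.2 TPM in control and 2612 TPM in ER stress, and its log2 difference of -0.81 was close to that of Actg1 alone.

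**Figure D3:**
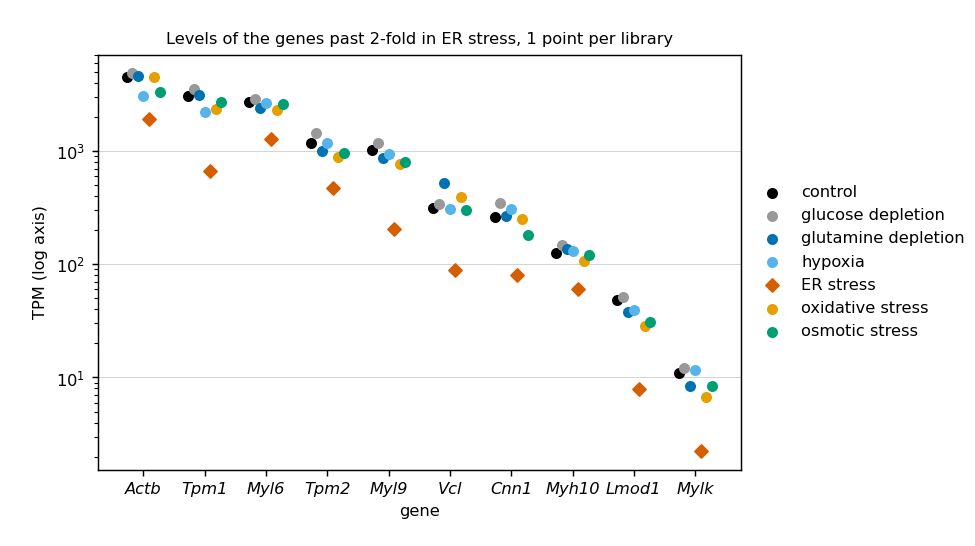
Level in TPM (log axis) of the 10 genes past 2-fold in ER stress, with 1 point per library in 7 colors and the ER stress library as diamonds. For each gene the diamond is the lowest point, from 1901 TPM for Actb to 2.26 TPM for Mylk.

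The focal adhesion genes were uneven in ER stress. Vcl encodes vinculin, which binds talin and actin at adhesions under load. It was at 314 TPM in control, 338 in glucose depletion, 518 in glutamine depletion, 308 in hypoxia, 89.6 in ER stress, 395 in oxidative stress and 302 in osmotic stress. It fell by 1.80 log2 units in ER stress and was highest in glutamine depletion. Tln1 (talin 1), its binding partner, was at 161 TPM in control and 148 TPM in ER stress, a difference of -0.12. The ratio of Vcl to Tln1 was 1.96 in control, 1.98 in glucose depletion, 2.68 in glutamine depletion, 2.60 in hypoxia, 0.605 in ER stress, 2.71 in oxidative stress and 2.06 in osmotic stress. Zyx (zyxin, which is recruited to stretched stress fibers), at 434 TPM in control and 511 TPM in ER stress, and Filip1l, at 94.2 and 118 TPM, were the genes above control in ER stress, with differences of 0.23 and 0.32. The crosslinkers Flna (filamin A), Actn1 and Actn4 (alpha-actinins) had differences of -0.33, -0.46 and -0.59, and Pxn (paxillin, an adhesion scaffold) one of -0.29.

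Of the LIM-domain genes, Fhl1 was just short of 2-fold in ER stress, at 321 TPM in control and 160.5 TPM in ER stress, a difference of -0.998. The other LIM-domain and associated genes had differences from -0.55 (Pdlim5) to 0.32 (Filip1l). Srf itself was at 35.3 TPM in control and 29.2 TPM in ER stress, a difference of -0.27, and its cofactor genes Mkl1 and Mkl2 had differences of -0.56 and -0.23. The mRNA of none of the 3 regulators passed 2-fold in this library, which says nothing of their activity as proteins.

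ER stress was also compared without the control library. Against the median of the other 3 libraries at 10 hours, 13 of the 36 genes were lower by more than 2-fold in ER stress, where 8.94% of all genes kept were lower. The median difference was -0.74 for the 36 genes and 0.06 for all genes. The lowest values were -2.23 for Tpm1, -2.20 for Lmod1 and -2.19 for Myl9, and the highest was 0.23 for Zyx. Against control, 3 of 10 fibroblast markers fell past 2-fold in the same library, where 11% of all genes kept did. They were S100a4 (from 3444 to 296 TPM), Col3a1 (from 1479 to 352 TPM) and Pdgfrb (from 129 to 57.6 TPM). The median difference from control over the 10 fibroblast markers was -0.72, beside -0.59 for the 36 genes. Of 6 pericyte markers 3 were kept, and 2 of these fell past 2-fold (Mcam from 42.6 to 10.1 TPM and Notch3, with a difference of -1.15). The remaining pericyte marker kept had a difference of -0.05. Whether a change in the mixture of cells has a part in the lower levels was not tested.

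In glutamine depletion 0 of 36 genes were past 2-fold in either direction, where 3.21% of all genes kept were higher and 3.21% lower. At 1.5-fold, 7 genes were higher, Vcl, Pxn, Fhl2, Pdlim5, Pdlim7, Filip1l and Srf, where 7.47% of all genes were higher, and 0 were lower, where 10.6% of all genes were lower. These were focal adhesion genes, LIM-domain and associated genes, and Srf, and no actin, thin-filament or myosin gene was among them. Srf was at 35.3 TPM in control, 36.1 in glucose depletion, 62.7 in glutamine depletion, 29.8 in hypoxia, 29.2 in ER stress, 46.3 in oxidative stress and 37.0 in osmotic stress. The glutamine depletion library was the highest for Srf, with a difference of 0.81. Pdlim5, which links signaling proteins to alpha-actinin and the cytoskeleton, was at 184, 209.6, 325, 157, 126, 281 and 172 TPM in the same order, with a difference of 0.82 in glutamine depletion. Vcl and Pxn each had a difference of 0.72.

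The medians by role were spread in glutamine depletion. They were 0.64 for LIM-domain and associated genes, 0.34 for SRF and its cofactors, 0.26 for focal adhesion and crosslinking genes, 0.02 for thin-filament genes, -0.09 for the actins and -0.18 for the myosin II genes, and the median over all genes kept was -0.09. Acta2 was at 3449.8 TPM, a difference of -0.22, while Actg1 was at 5123 TPM, its highest level, a difference of 0.39. Acta2 therefore held 25.8% of actin TPM against 31.7% in control, and Actg1 held 38.3% against 30.8%. These shares leave out the pseudogene Gm12715, and the sum of Actg1 and Gm12715 had a difference of 0.42.

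In oxidative stress 0 of 36 genes were past 2-fold, where 3.94% of all genes kept were higher and 4.85% lower. Past 1.5-fold, 4 genes were higher (Pxn, Fhl2, Pdlim5 and Filip1l), where 7.27% of all genes were higher, and 2 were lower (Lmod1 and Mylk), where 16.2% of all genes were lower. Filip1l, whose product is a filamin-A-interacting-protein-like protein, was at 94.2 TPM in control, 101 in glucose depletion, 154 in glutamine depletion, 112 in hypoxia, 118 in ER stress, 159 in oxidative stress and 88.3 in osmotic stress. Its highest levels were in oxidative stress and glutamine depletion. Pxn, at 31.1, 32.7, 51.9, 36.3, 25.3, 51.2 and 27.3 TPM, had its highest levels in the same libraries, as did Fhl2 (a LIM-only cofactor that binds SRF), at 96.5, 88.4, 152, 83.1, 75.0, 157 and 132 TPM. Fhl3, another LIM-only gene, had differences of 0.45 in glutamine depletion and 0.46 in oxidative stress. The median by role in oxidative stress was 0.58 for LIM-domain and associated genes, -0.11 for thin-filament genes and -0.22 for myosin II genes, and it was -0.16 over all genes kept. The glutamine depletion and oxidative stress changes share the control library, so their likeness is given only as values side by side.

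**Figure D4:**
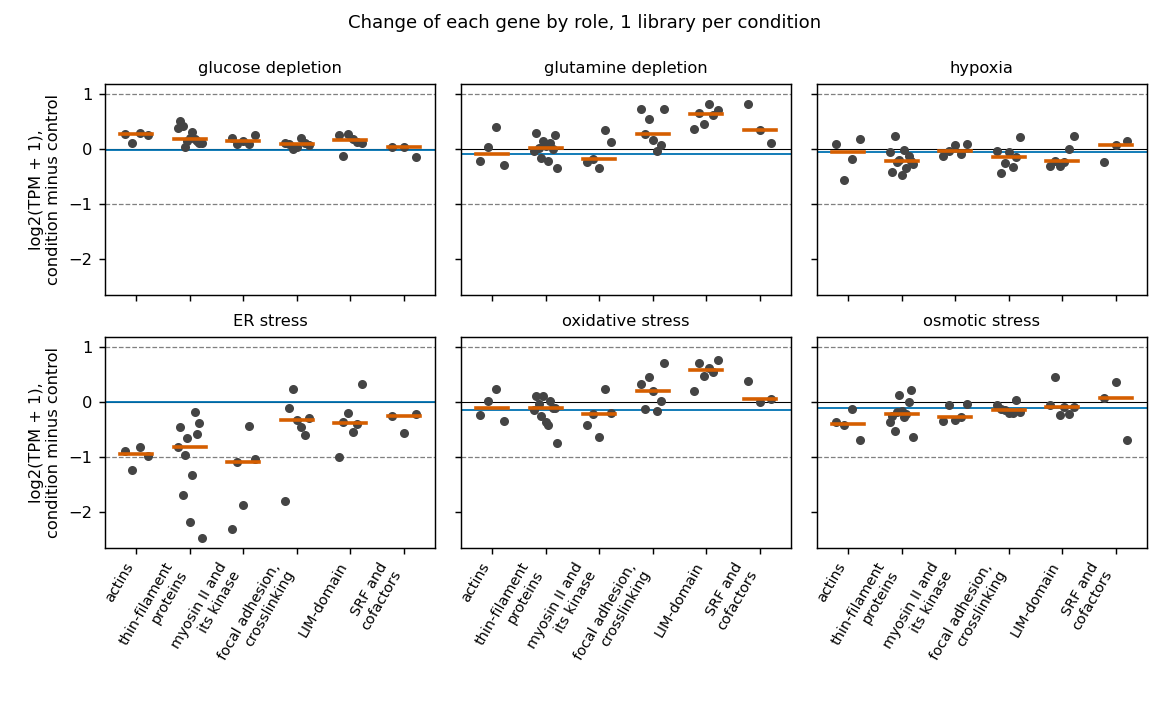
Difference in log2(TPM + 1) from control of each gene (points) by role, in 1 panel per condition with 1 library each. Orange bars are the medians by role, the blue line is the median over all genes kept, and dashed lines mark 2-fold. In glutamine depletion and oxidative stress the LIM-domain and associated genes have the highest median (0.64 and 0.58). In ER stress the myosin II genes have the lowest (-1.09).

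Libraries were also compared with each other without the control. Between glutamine depletion and glucose depletion, both nutrient withdrawals of the same duration, 0 of 36 genes differed by more than 2-fold, where 3.12% of all genes kept were higher and 2.37% lower in glutamine depletion. Srf and Fhl2 were each higher in glutamine depletion by 0.78 log2 units, Pxn by 0.65, Pdlim5 by 0.63, Vcl by 0.62 and Filip1l by 0.60, while the differences of Actg2, Tpm2 and Acta2 were -0.55, -0.53 and -0.50. Between oxidative and osmotic stress, both of 3 hours, 0 of 36 differed by more than 2-fold, where 7.86% of all genes kept were higher and 3.9% lower in oxidative stress. The largest differences were 0.88 for Pxn, 0.85 for Filip1l and 0.77 for Pdlim7, a LIM protein of stress fibers.

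In osmotic stress 0 of 36 genes were past 2-fold, where 3.08% of all genes kept were higher and 8.76% lower. Past 1.5-fold were Actg2 (252 TPM in control and 155 TPM in osmotic stress, a difference of -0.70), Mkl2 (10.1 and 5.87 TPM, -0.69) and Lmod1 (48.1 and 30.7 TPM, -0.63), all lower. These were 3 of 36 genes lower and 0 higher at this fold, where 19.5% of all genes kept were lower and 6.56% higher. The osmotic stress library was the lowest of the 7 for Mkl2 and Filip1l and the highest for Mkl1, at 39.3 TPM. The median was -0.18 for the 36 genes and -0.12 for all genes kept, and 30 of 36 were below 0. Fhl2, at 132 TPM, had the highest difference, 0.45.

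In glucose depletion 0 of 36 genes were past 2-fold, where 1.83% of all genes kept were higher and 2.41% lower. At 1.5-fold the count was also 0, where 3.47% of all genes were higher and 6.23% lower. The values lay close together, with 34 of 36 above 0, a median of 0.13 and a median of -0.02 over all genes. The glucose depletion library was the highest of the 7 for 18 of the 36 genes, which was the case for 9.16% of all genes kept. The largest differences were 0.51 for Tagln2 (transgelin 2, 761 TPM in control and 1081 TPM in glucose depletion), 0.42 for Cnn1 and 0.37 for Tagln. The 36 genes took 3.78% of all TPM in this library, the largest share of the 7.

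In hypoxia 0 of 36 genes were past 2-fold, where 3.57% of all genes kept were higher and 2.64% lower. At 1.5-fold the count was also 0, where 7.23% of all genes were higher and 8.1% lower. The median was -0.14 for the 36 genes and -0.05 for all genes, and 27 of 36 were below 0. The lowest differences were -0.55 for Actb, -0.47 for Tpm1 and -0.44 for Tln1, and the highest was 0.24 for Filip1l. Hypoxia was the lowest library for Tpm3, Tln1, Zyx and Fhl3. Acta2 was at 4255 TPM, a difference of 0.08, and Actb at 3071 TPM, and the ratio of Acta2 to Actb was 1.39 in hypoxia against 0.892 in control and 0.749 to 1.14 in the other conditions.

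The genes with and without an exact CArG box were set side by side as a description. In ER stress the median difference was -0.97 for the 9 genes with a box, from -2.31 (Myl9) to 0.32 (Filip1l), and -0.55 for the 23 genes with a promoter but no box, from -2.47 (Lmod1) to 0.23 (Zyx). Past 2-fold in ER stress, 3 of the 9 and 6 of the 23 were lower, where 11% of all genes kept were. In glutamine depletion the medians were 0.39 and 0.12, and in oxidative stress 0.23 and 0.00. They were 0.10 and 0.14 in glucose depletion, -0.19 and -0.15 in hypoxia, and -0.06 and -0.21 in osmotic stress. The ranges of the genes with and without a box overlapped in each of the 6 conditions.

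Genes near this set in the pathway were described from lists of their own. Of 25 other targets of SRF and MRTF, 24 were kept, and in ER stress 11 fell past 2-fold and 1 rose, where 11% and 8.6% of all genes did, with a median of -0.91. Ptrf, which encodes the caveolar coat protein cavin-1, went from 391 TPM in control to 96.9 TPM in ER stress (-2.00), and Csrp2, a LIM protein of smooth muscle, from 70.4 to 22.3 TPM (-1.61). Myh11, the smooth muscle myosin heavy chain, went from 9.46 to 2.49 TPM (-1.59). The gene that rose was Tes (testin, a LIM protein of adhesions), from 56.7 to 187 TPM (1.71). In glutamine depletion 1 of the 24 rose, where 3.21% of all genes kept were higher. It was Itga5, the integrin chain that binds fibronectin, from 201 to 575 TPM (1.51). In the same library 1 fell, Jph2 (-1.07), where 3.21% of all genes kept were lower. In oxidative stress 1 rose, again Itga5 at 476 TPM (1.24), where 3.94% of all genes kept were higher. There 2 fell, Sdpr (-1.50) and Jph2 (-1.28), where 4.85% of all genes kept were lower. In hypoxia and in osmotic stress 0 rose and 1 fell, which was Tuft1 in each. Of all genes kept, 3.57% were higher and 2.64% lower in hypoxia, and 3.08% and 8.76% in osmotic stress. In glucose depletion 0 were past 2-fold, where 1.83% of all genes kept were higher and 2.41% lower. Itga5 and Jph2 were both lower in ER stress, with differences of -1.18 and -1.44.

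The RhoA and ROCK pathway, which promotes actin assembly and myosin phosphorylation upstream of MRTF, was mostly within 2-fold. All 25 genes were kept. In ER stress 1 rose (Arhgef2, a RhoA activator, from 94.1 to 190.3 TPM) and 0 fell, where 8.6% and 11% of all genes kept did. In oxidative stress Rnd3 fell (-1.09), where 4.85% of all genes kept were lower. In osmotic stress 1 fell, Rhob, from 116 to 37.6 TPM (-1.60), where 8.76% of all genes kept were lower. None of the 25 was past 2-fold in glucose depletion, glutamine depletion or hypoxia, where 1.83% to 3.57% of all genes kept were in a given direction.

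The TCF branch of SRF was described by a list of 11 genes, all kept. The list held genes for TCFs themselves beside immediate early and other target genes. Of these, 6 rose in glutamine depletion and 5 in oxidative stress, where 3.21% and 3.94% of all genes were higher. In osmotic stress 2 rose, in glucose depletion 2 and in ER stress 1, where 3.08%, 1.83% and 8.6% of all genes were higher. In hypoxia 0 rose, where 3.57% of all genes were higher. Only Egr3 fell, in ER stress (-1.25), where 11% of all genes kept were lower. Egr2 was at 4.50 TPM in control, 12.4 in glucose depletion, 56.9 in glutamine depletion, 5.48 in hypoxia, 5.01 in ER stress, 32.2 in oxidative stress and 8.06 in osmotic stress. Its difference in glutamine depletion was 3.40. Egr1 was at 52.9, 63.7, 161, 54.8, 87.7, 121 and 63.4 TPM in the same order. Both were highest in glutamine depletion and next highest in oxidative stress. The median of the 11 genes was 1.34 in glutamine depletion and 0.91 in oxidative stress, beside 0.14 and 0.01 for the 36 genes, and no test of a difference between the lists was made.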

How the data were processed

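RNA was isolated from adherent cells, libraries were made with a stranded mRNA kit and sequenced as paired ends, and, per the labels and the study's methods, reads were assigned with kallisto 0.43.1 to cDNA of GRCm38. The deposited values are TPM, which the authors had summed by gene. TPM keeps no read count, so the depth is unknown and no counting interval is given. No column was left without a sample.

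Differences of log2(TPM + 1) from control were computed for genes averaging 2 TPM or more, and those past 2-fold were counted. The members and all lists were chosen with earlier results of these data known, so no list is independent evidence. All 36 members were named. Of each other list, up to 4 genes past 2-fold with the largest change could be named. Itga5, Jph2, Sdpr, Tuft1, Pfn2, Arpc3, Synpo2, Synm, Cspg4, Rgs5, Kcnj8 and Abcc9 are outside that rule and were chosen after their values were seen. One result from the RhoA and ROCK list is not reported here.

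Promoters came from RefSeq on GRCm38.p6, with 250 bases upstream searched and the 50 bases downstream left out. Windows show 25 bases on each side of a box where the window allows. Windows were printed for genes with an exact box, a wider choice than the rule for sequences (actins and genes with the widest range), and for Acta2, Tpm1 and Lmod1. Words of 31 bases shared between genes were counted on GENCODE M21 transcripts, a stand-in for the authors' cDNA set. The calculation was tested on simulated data. Alternatives were pseudocounts of 0.1 and 5 TPM, no filter or one of 10 TPM, subtraction of the median over all genes kept, rescaling without mitochondrially encoded genes, 1.5-fold and 3-fold in place of 2-fold, and the other 6 libraries' median in place of the control. Protein-coding genes alone and direct comparisons of libraries were added after seeing the data. Scripts ran on Python 3.11.15 with pandas 2.3.3, numpy 2.4.6 and matplotlib 3.10.9.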

Additional observations from a re-analysis of the deposited data

How the results depend on the processing

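The counts of the 36 genes depended on the threshold. At 1.5-fold, 18 were lower in ER stress, 7 higher in glutamine depletion, 4 higher and 2 lower in oxidative stress, and 3 lower in osmotic stress. At 3-fold, 6 were lower in ER stress. Under the other alternatives the count lower in ER stress was 9 to 12, against 10, and the counts of the other 5 conditions were 0 in both directions. Myh10 was at -0.99 with a pseudocount of 5 TPM, and Mylk did not pass the filter of at least 10 TPM. No value changed sign past 2-fold. The share of all genes that was lower in ER stress, 11%, was 3.76% without a filter, 6.03% with a pseudocount of 5 TPM, 21.3% at 1.5-fold, 4.31% at 3-fold and 9.79% among protein-coding genes. For genes higher in glutamine depletion this share ranged from 1.46% to 7.47%, and in oxidative stress from 1.79% to 7.27%. No paired analysis was possible because each condition had 1 library. Unknown depth limits the values of genes at few TPM, such as Mylk. For 7 of the 36 genes more than 10% of words of 31 bases occur in other genes, up to 70.4% for Tpm3, and their levels depend on how reads were divided.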

Other observations

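Of 26 genes for actin assembly and turnover, all kept, 5 fell past 2-fold in ER stress, where 11% of all genes kept were lower. Their median log2 difference over the 26 was -0.45. The 5 genes were Cotl1 (76.2 TPM in control and 30.9 TPM in ER stress), Cap2, Arpc5 and Arpc3 (subunits of the Arp2/3 complex, which starts branched filaments) and Pfn2 (a profilin). In glutamine depletion 1 of the 26 rose, where 3.21% of all genes kept were higher. It was Enah, which promotes filament elongation at adhesions and the leading edge, from 76.3 to 199 TPM. Enah was at 149.6 TPM in oxidative stress, short of 2-fold. In the other conditions none of the 26 passed 2-fold, where 1.83% to 8.76% of all genes kept did in a given direction.

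Of 10 smooth muscle markers, 4 of which belong to the 36 genes, 9 were kept. In ER stress 5 fell past 2-fold, namely Lmod1, Cnn1, Myh11, Des and Synpo2, where 11% of all genes kept were lower. Lmod1 and Cnn1 are among the 36 genes, and Myh11, Des and Synpo2 are among the other SRF and MRTF targets counted above. In glutamine depletion 1 rose, Synm, from 4.12 to 9.38 TPM, where 3.21% of all genes kept were higher. Acta1, the skeletal muscle actin, was at 80.3 TPM in control, 152 in glucose depletion, 107 in glutamine depletion, 76.7 in hypoxia, 37.3 in ER stress, 92.4 in oxidative stress and 66.9 in osmotic stress. It was past 2-fold in ER stress alone, with a difference of -1.09.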
